A study of Homo sapiens with 6 samples.

Results

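The HOX cluster genes were the rows of the expression table whose symbol is HOXA, HOXB, HOXC or HOXD followed by a number only, 39 of 57820 rows, and 38 of them are described here. HOX genes encode homeodomain transcription factors that give cells their position along the body axis. They lie in 4 clusters, and the number in each name is the paralogue group, which follows the order along the cluster from 1 at the anterior end to 13 at the posterior end. Adult cells commonly keep a set of active HOX genes that reflects where in the body they came from, held on or off by Trithorax and Polycomb chromatin complexes, and HOX proteins bind DNA together with PBX, MEIS and PKNOX partners. In the mammary gland, several HOX genes are known to act in the growth and branching of the epithelium.

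Polyadenylated RNA was sequenced from hTert-HME1, a human mammary epithelial line made immortal with telomerase, in 6 libraries. All cells had been transfected with an siRNA, either the control labelled control-1 or the siRNA against BRCA2 labelled BRCA2-2, and BRCA2 is a gene of homologous recombination repair. Control cells in complete medium with epidermal growth factor (EGF) gave 1 library at passage 4 and 2 at passage 6 (A and B). BRCA2 siRNA cells gave 1 library with EGF at passage 4 and 2 libraries without EGF at passage 6 (A and B). All 6 libraries come from 1 cell line and 1 siRNA of each kind. Control cells without EGF were not analysed here, so siRNA and medium change together within passage 6, and the letters are the labels' biological replicates. Nothing states that they came from separate cultures, so p-values measure the spread between these libraries. The titles of the passage 4 libraries carry no letter. A replicate block, fitted below as an alternative, counted both of these libraries as A, so its results depend on that choice.

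The deposited values are normalised log2 values, and the depth of each library is unknown. The targeted gene, BRCA2, had log2 values of 10.19 in the control library at passage 4, 11.25 and 11.24 in the controls at passage 6, 10.88 in the library labelled BRCA2 siRNA at passage 4, and 11.15 and 10.89 in those labelled BRCA2 siRNA without EGF. The library labelled BRCA2 siRNA at passage 4 was thus 0.69 above its control, against its label, and the passage 6 difference of -0.23 was not called (limma adjusted p = 0.230). The samples are therefore named by their labels throughout. The basal mammary markers KRT5, KRT14, KRT17, TP63, ITGA6 and ITGB4 were abundant in every library, while the 5 markers of epithelium in general were split. EPCAM and KRT19 were near the bottom of the scale, with mean normalised values of 0.929 and 2.06, and KRT8, KRT18 and CDH1 had mean normalised values of 1831, 1864 and 410.3.

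A HOX gene is called on here when its normalised value, 2 raised to the log2 value, was at least 10 in every library, which is a log2 value of 3.32. By that measure 13 of the 38 HOX genes were on, 17 were low and 8 were listed at 0 in all 6 libraries. The 13 were HOXA2, HOXA3, HOXA5, HOXA6, HOXA7, HOXB2, HOXB3, HOXB9, HOXC6, HOXC8, HOXC9, HOXC13 and HOXD8. The 8 listed at 0 were HOXA9, HOXA10, HOXA11, HOXB1, HOXB8, HOXB13, HOXC12 and HOXD12. No HOX gene was on in some libraries and off in others.

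Promoter sequences are shown for 3 genes chosen after their values were seen: HOXA7, the most posterior active gene of HOXA; HOXA9, the next gene of that cluster, listed at 0; and HOXD8, the single active HOXD gene. Each is the 250 bases before the start of transcription, 5′ to 3′ on the gene's strand, from RefSeq (GRCh38.p14), with every CG dinucleotide in capitals. The windows are chr7:27156676-27156925 on the minus strand for HOXA7, chr7:27165538-27165787 on the minus strand for HOXA9 and chr2:176129455-176129704 on the plus strand for HOXD8.
HOXA7: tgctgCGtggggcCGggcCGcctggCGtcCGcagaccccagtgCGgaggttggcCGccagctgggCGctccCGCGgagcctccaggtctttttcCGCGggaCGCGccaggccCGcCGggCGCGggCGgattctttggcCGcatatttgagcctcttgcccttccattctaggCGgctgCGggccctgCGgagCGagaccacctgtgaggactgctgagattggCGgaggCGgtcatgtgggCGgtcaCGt
HOXA9: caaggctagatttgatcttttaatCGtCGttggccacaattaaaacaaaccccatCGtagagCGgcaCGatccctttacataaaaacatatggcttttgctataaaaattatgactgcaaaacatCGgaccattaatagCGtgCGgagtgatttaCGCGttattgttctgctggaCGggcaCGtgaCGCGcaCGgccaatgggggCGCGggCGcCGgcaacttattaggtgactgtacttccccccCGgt
HOXD8: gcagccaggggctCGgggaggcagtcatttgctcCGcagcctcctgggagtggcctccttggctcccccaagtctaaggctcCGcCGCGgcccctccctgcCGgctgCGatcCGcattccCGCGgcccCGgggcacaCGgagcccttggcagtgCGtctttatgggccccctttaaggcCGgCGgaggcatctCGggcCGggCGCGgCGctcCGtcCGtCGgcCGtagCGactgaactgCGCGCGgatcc
The HOXA7 window holds 28 CG dinucleotides and 70.8% G plus C, and the HOXD8 window 28 and 72.4%. The HOXA9 window holds 20 CG dinucleotides in sequence of 48.8% G plus C, which is 1.34 times the number its base composition gives, and it contains TATAAA.

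RefSeq windows were available for 20 of the 38 genes, 27 windows in all, since some genes have several starts. Their median was 19 CG dinucleotides per window, against 11 over the 35116 windows of the table. By window, the median was 13 in 11 windows of active genes, 22 in 10 windows of low genes and 17.5 in 6 windows of genes listed at 0, but 7 of the 11 active windows are starts of HOXA3, and HOXC4 and HOXC5 share a window. With 1 value a gene, the median over its windows, the median was 27 over 5 active genes (8 to 28), 22 over 10 low genes (4 to 40) and 16 over 5 genes listed at 0 (7 to 21.5). The ranges overlapped, and the difference was not tested. HOXA13, with 40 CG dinucleotides the richest HOX window, belonged to a low gene. The pattern TGATNNAT, of the kind bound by PBX and HOX proteins together, was found on either strand in 11.1% of the HOX windows and in 6.5% of all windows, in HOXA2, HOXB1 and HOXD11. TATAAA, the core of the TATA box, was found on either strand in 18.5% and 10.7%, in windows of HOXA3, HOXA9, HOXA10 and HOXD13. The 2 patterns can overlap each other. A match is a description of the letters in the window.

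**Figure D1:**
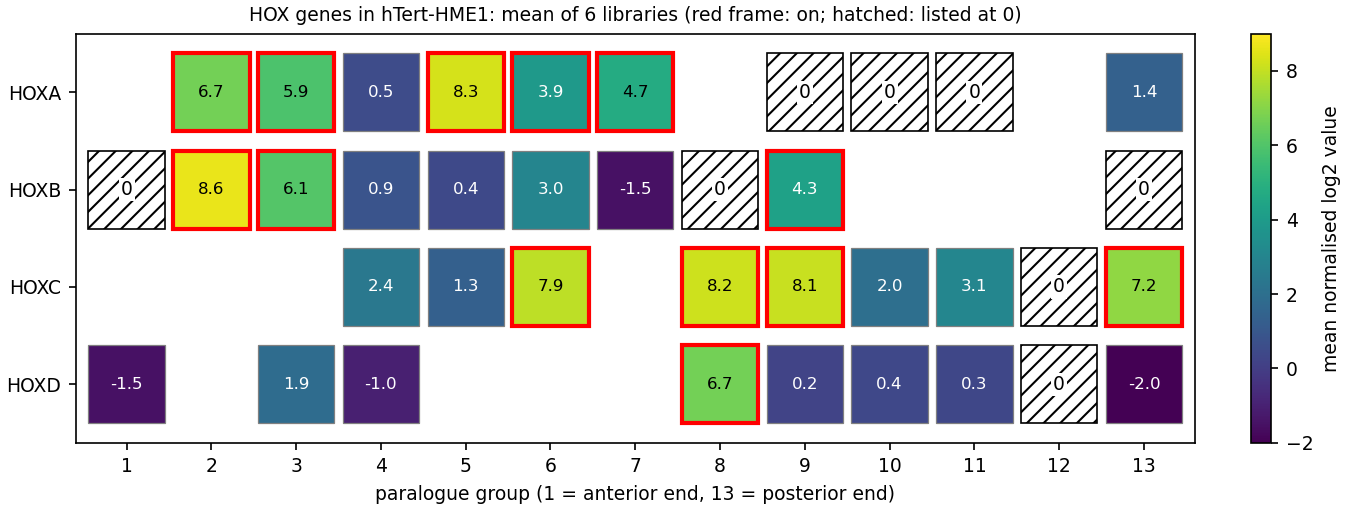
Mean log2 value of each HOX gene over the 6 libraries, by cluster (rows) and paralogue group (columns); red frames mark the 13 genes that were on and hatching the 8 listed at 0, and empty places hold no described gene. Values are not corrected for transcript length, so they show on and off, not the order between genes: HOXA is framed from HOXA2 to HOXA7 except HOXA4, and HOXD only at HOXD8.

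The map of HOX genes showed a different pattern in each cluster. In HOXA, 5 of the 10 genes described were on, all toward the anterior end: HOXA2, HOXA3, HOXA5, HOXA6 and HOXA7. HOXA4 lay inside this stretch at log2 values of 0.41 to 0.61, HOXA9, HOXA10 and HOXA11 were listed at 0, and HOXA13 had a mean of 1.35. In HOXB, 3 of 10 were on: the neighbours HOXB2 and HOXB3, and the separate HOXB9, with HOXB4 to HOXB7 low between them. In HOXC, 4 of 9 were on, HOXC6, HOXC8, HOXC9 and the most posterior gene HOXC13, while HOXC10 and HOXC11 were low and HOXC12 was listed at 0. In HOXD, 1 of 9 was on, HOXD8.

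Across clusters, 10 of the 22 described genes of paralogue groups 1 to 8 were on, and 3 of the 16 of groups 9 to 13. The 3 posterior genes were HOXB9, HOXC9 and HOXC13. Among the described genes 10 of the 13 paralogue groups held more than 1 state. The other 3 were uniform: group 2, with HOXA2 and HOXB2 on, group 4, with 4 low genes, and group 12, with HOXC12 and HOXD12 listed at 0. In group 9, HOXB9 and HOXC9 were on, HOXD9 had log2 values of 0.10 to 0.34 and HOXA9 was listed at 0. In group 8, HOXC8 and HOXD8 were on and HOXB8 was listed at 0. In group 13, HOXC13 was on, HOXB13 was listed at 0, and HOXA13 and HOXD13 were low, HOXD13 at the bottom of the measured scale (-1.98 to -1.95).

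The threshold had 2 genes close on either side. HOXA6 and HOXB9 were just inside, with lowest log2 values of 3.64 and 3.59, and HOXC11 and HOXB6 were just outside, with highest log2 values of 3.31 and 3.14. With a minimum of 5 the count was 15, and with a minimum of 50 it was 8. A value of exactly 0 says only that the row is listed at 0. It is not the lowest value of the scale, which runs down to -1.98, and KMT2B, a methyltransferase gene that cells in general use, was also listed at 0 in all 6 libraries. Of protein-coding rows sharing at least 90% of their exon bases with another gene on the same strand, 85.6% were listed at 0, against 13.7% of rows sharing less than 10%.

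That overlap differed between the HOX genes at 0. HOXA9 shared 13.1% and HOXA10 9.9% of their exon bases on the same strand in GENCODE release 29, and the HOXA10-HOXA9 read-through row was itself listed at 0. HOXA11, HOXB1, HOXB8, HOXB13, HOXC12 and HOXD12 shared 0.0% on the same strand. Counting either strand, the overlap was 31.1% for HOXA11, 27.0% for HOXA9, 26.3% for HOXA10 and 0.0% for the others listed at 0. Among the low genes the same-strand overlap was highest for HOXC5, at 59.9%, and HOXA4, at 31.0%. A second gene model of HOXC5 and a HOXC read-through row were also listed at 0. How reads in shared bases were assigned is not given. Antisense overlap was large for HOXA7, where 62.5% of exon bases overlap a gene on either strand, and HOXA6, where 40.1% do. The use of strand in counting is not given, so whether reads of these genes were kept apart from those of their antisense partners is not known. How reads that match several paralogues were treated is likewise not given.

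To compare levels between genes, the normalised value was divided by the length in kilobases of all annotated exons, merged over the transcripts of the gene. Which transcripts the cells made is not known. The value of a gene with many annotated exons, such as HOXB3 with 7456 bases, may therefore be too low on this scale. On this per-kilobase scale the mean over the 6 libraries was 183.7 for HOXA5, 171.9 for HOXB2, 163.9 for HOXC9 and 153.0 for HOXC8. Their ranges over the libraries overlapped (163 to 211, 149 to 202, 123 to 210 and 137 to 171), and their order was not tested. Library by library, HOXA5 always lay above HOXC8, while the order of every other pair among these 4 varied. The other genes followed in lower tiers. HOXC6 (68.8) and HOXC13 (59.4) overlapped in range, as did HOXA2 (41.9) and HOXD8 (39.01), and the highest HOXA2 value, 53.40, lay close to the lowest HOXC13 value, 53.49. The highest value among these 4, 74.7 for HOXC6, lay below the lowest of the leading 4, 123 for HOXC9. HOXA3 (13.8), HOXA6 (11.9), HOXA7 (10.9), HOXB3 (9.03) and HOXB9 (7.82) followed, with a highest value of 16.8 for HOXA3, below the lowest of the tier above, 30.6 for HOXA2.

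A few genes thus carried most of the HOX signal. The leading 5 genes made up 77.9% of the summed per-kilobase value and the leading 8 made up 92.6%. After HOXB9 the next was HOXB6 at 3.09 per kilobase, and HOXD13, at 0.114, was the lowest of the low genes.

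**Figure D2:**
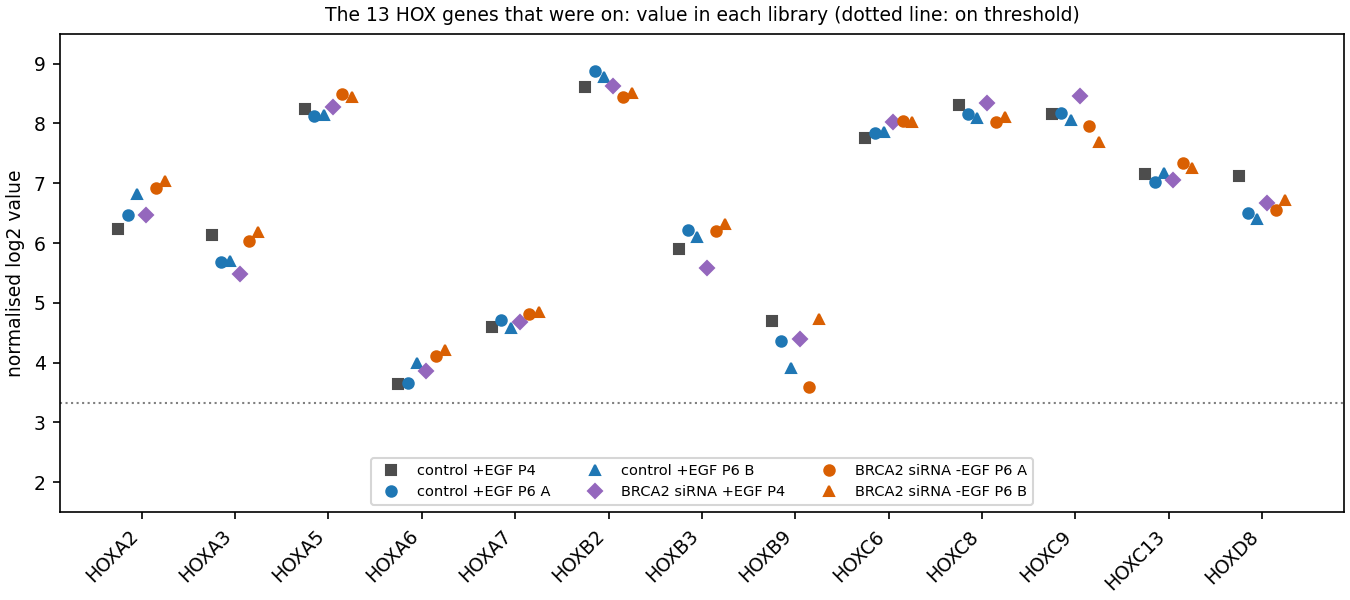
Log2 value (vertical axis) of the 13 active HOX genes in each of the 6 libraries; the dotted line is the threshold for on, 3.32. HOXA7 has the narrowest spread over the libraries, 0.27, and HOXB9 the widest, from 3.59 to 4.73.

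The 13 active genes passed the filter of the tests, a mean normalised value of at least 10, which left 14763 rows. The plot of values by library shows their spread: the range over the 6 libraries had a median of 0.58 on the log2 scale, against 0.60 over all tested rows, from 0.27 for HOXA7 to 1.13 for HOXB9. The 17 low genes ranged by at most 0.49, for HOXB6. Their log2 differences in the 4 comparisons below lay between -0.41 and 0.33. The transformation of the values is not given, and a shrinking log transformation would understate differences of low rows. In bulk RNA a lower value from fewer expressing cells and one from less RNA per cell cannot be told apart.

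The first comparison asked how cells with the BRCA2 siRNA and without EGF differed from control cells with EGF at passage 6. None of the 13 genes passed the test (0 called, limma, two-sided, Benjamini-Hochberg adjusted p below 0.05 over 14763 rows), where 6.44% of all tested rows did. At an unadjusted p below 0.05 there were 3 of 13, against 31.5% of tested rows. The log2 differences had a median of 0.19, against -0.02 over all tested rows, and 10 of 13 were above 0. The 2 groups of 2 libraries did not overlap for 8 genes that were higher and 2 that were lower without EGF, where 29.2% and 35.7% of all tested rows behaved in these ways.

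All 5 active HOXA genes described had differences above 0, from 0.19 for HOXA7 to 0.42 for HOXA3, and none was called. HOXA6 had log2 values of 3.65 and 4.00 in the controls at passage 6 and 4.11 and 4.22 without EGF, with 3.64 in the control and 3.86 in the library labelled BRCA2 siRNA at passage 4. Its 2 highest values were those without EGF, and the group means were 3.83 ± 0.24 and 4.17 ± 0.073 (SD, n = 2 each), a difference of 0.34 ± 0.16 (SE, limma adjusted p = 0.215).

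HOXA3, which acts in pharyngeal and thymus development, had log2 values of 5.68 and 5.70 in the controls at passage 6 and 6.04 and 6.18 without EGF. At passage 4 it was 6.14 in the control and 5.49 in the library labelled BRCA2 siRNA. The passage 6 groups stood apart, at 5.69 ± 0.018 and 6.11 ± 0.098 (SD, n = 2 each), and the control at passage 4 lay among the libraries without EGF. The passage 6 difference was 0.42 ± 0.11 (SE, limma adjusted p = 0.0874). HOXA5, a regulator of lung and mammary epithelium, had the highest mean per kilobase, though not the highest value in every library. Its log2 values ranged from 8.12 to 8.49 over the 6 libraries, with both highest values in the libraries without EGF (0.33 ± 0.083, SE, limma adjusted p = 0.0781).

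HOXB2 and HOXC9 lay in the other direction. HOXB2, which acts in hindbrain patterning, had log2 values of 8.88 and 8.78 in the controls at passage 6, 8.44 and 8.51 without EGF, and 8.61 and 8.63 at passage 4 in the control and the library labelled BRCA2 siRNA. The libraries without EGF held its 2 lowest values, and the difference of -0.35 ± 0.087 (SE) had a limma adjusted p of 0.0758. HOXC9 had log2 values of 8.18 and 8.06 in the controls at passage 6, 7.95 and 7.69 without EGF, and 8.16 and 8.46 at passage 4 in the control and the library labelled BRCA2 siRNA. Its 2 lowest values were again those without EGF, and its difference was -0.30 ± 0.13 (SE, limma adjusted p = 0.186).

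The remaining active genes had passage 6 differences between -0.06, for HOXC8, and 0.33, for HOXA2. HOXB9 had log2 values of 4.37 and 3.90 in the controls at passage 6, 3.59 and 4.73 without EGF, and 4.69 and 4.40 at passage 4 in the control and the library labelled BRCA2 siRNA. The libraries without EGF were its lowest and its highest, and the difference was 0.02 ± 0.41 (SE). Over all tested rows the SD of the difference between A and B was 0.31 in the pair without EGF and 0.12 in the controls. Over the 13 genes it was 0.33 and 0.21, and over the 12 other than HOXB9 it was 0.12 and 0.17. By SD the pair without EGF was thus the looser one there only with HOXB9 included. Gene by gene, 8 of the 13 had the larger A to B difference in the pair without EGF and 5 in the control pair. Without library A of the pair without EGF 7 of the 13 genes were called and without library B 4, but the spread then came from the 2 close controls alone, and 60.7% and 47.2% of all tested rows were called.

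**Figure D3:**
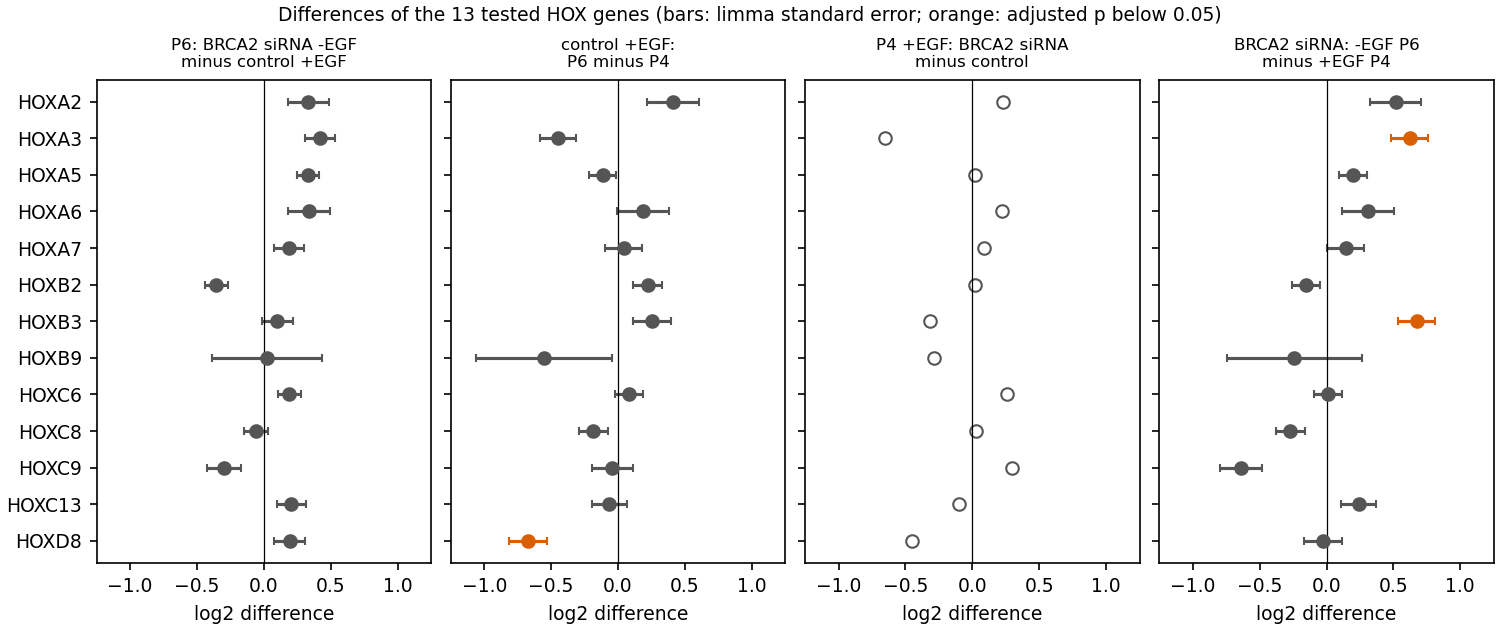
Log2 difference of each of the 13 active HOX genes in the 4 comparisons (one panel each, bars are limma standard errors, orange marks an adjusted p below 0.05); open circles are differences of 2 single libraries with no error. HOXD8 is orange in the passage comparison of controls (-0.67), and HOXA3 (0.62) and HOXB3 (0.67) in the comparison of BRCA2 siRNA libraries.

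The second comparison set control cells with EGF at passage 6 (2 libraries) against passage 4 (1 library). HOXD8 fell, and it was the only one of the 13 that was called, where 20.1% of all tested rows were called. HOXD8 had log2 values of 7.12 in the control at passage 4, 6.50 and 6.40 in the controls at passage 6, 6.67 in the library labelled BRCA2 siRNA at passage 4, and 6.55 and 6.73 without EGF. The control at passage 4 stood above the other 5 libraries, which lay within 0.33 of each other on the log2 scale. The difference was -0.67 ± 0.14 (SE, limma adjusted p = 0.0406), and it rests on that 1 library. The call was lost without control A (limma adjusted p = 0.214) or control B (0.276) and with the replicate block (0.0560), and without either control 0 of all tested rows were called.

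For the other 12 genes the passage difference was not called. Their log2 differences ran from -0.55 ± 0.51 for HOXB9 (SE, limma adjusted p = 0.447) to 0.41 ± 0.19 for HOXA2 (SE, limma adjusted p = 0.175). HOXA3 differed by -0.45 (limma adjusted p = 0.0780). The median of the 13 was -0.04, against -0.03 over all tested rows, and 2 of 13 had an unadjusted p below 0.05, against 41.4% of tested rows.

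The third comparison set the library labelled BRCA2 siRNA against the control library, both with EGF at passage 4. With 1 library on each side there is no replicate check, and a gene was called past a log2 difference of 1 in either direction. No HOX gene passed it, where 2.21% of all tested rows did. The differences ran from -0.65 for HOXA3 to 0.30 for HOXC9, with -0.45 for HOXD8 and -0.32 for HOXB3, and 8 of the 13 lay above 0. Their median was 0.02, against -0.04 over all tested rows.

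The fourth comparison stayed among cells given the BRCA2-2 siRNA, with 2 libraries at passage 6 without EGF against 1 at passage 4 with it, so medium and passage differ together. HOXA3 and HOXB3 rose, 2 of 13 genes, where 16.3% of all tested rows were called. HOXB3 had log2 values of 5.58 in the library with EGF at passage 4 and 6.20 and 6.32 without EGF, against 5.90 in the control at passage 4 and 6.21 and 6.11 in the controls at passage 6. The 4 libraries of passage 6 lay within 0.21 of each other whatever their siRNA and medium. The difference was 0.67 ± 0.14 for HOXB3 (SE, limma adjusted p = 0.0422) and 0.62 ± 0.14 for HOXA3 (SE, limma adjusted p = 0.0465).

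For both genes the library labelled BRCA2 siRNA at passage 4 was the lowest of the 6, and the calls rest on it, the library whose BRCA2 value went against its label. With the replicate block, or with passages pooled into 3 groups, 0 of the 13 were called. With the letters of the pair without EGF crossed in the block, 2 of the 13 were called. HOXC9 (-0.64 ± 0.15, SE, limma adjusted p = 0.0542) had a difference of similar size and was not called. The median of the 13 was 0.14, against -0.02 over all tested rows. The comparisons share libraries: the third is made of the passage 4 libraries that also enter the second and the fourth, and the passage 6 libraries of the first enter those as well.

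**Figure D4:**
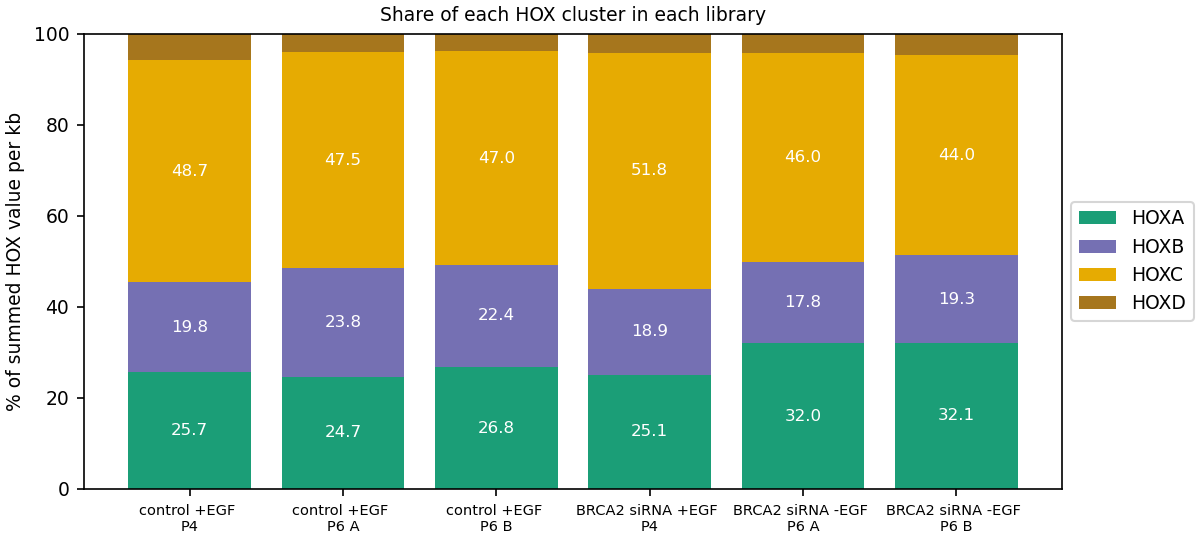
Share (% of the summed per-kilobase HOX value, vertical axis) of each of the 4 clusters in each library. HOXC is the largest share in all 6 libraries, and HOXA takes 32.0 and 32.1% in the 2 libraries without EGF against 24.7 to 26.8% in the 4 with EGF.

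The plot of cluster shares sums these values. HOXC genes made up 48.7% of the summed per-kilobase value of the HOX genes described in the control at passage 4, 47.5% and 46.97% in the controls at passage 6, 51.8% in the library labelled BRCA2 siRNA at passage 4, and 46.04% and 44.01% without EGF. HOXA genes made up 25.7%, 24.7%, 26.8%, 25.1%, 32.01% and 32.1% in the same order. The 2 libraries without EGF held the highest HOXA shares and the lowest HOXC shares of the 6. The HOXB share was 17.8% to 23.8% and the HOXD share 3.81% to 5.85%, the latter highest in the control at passage 4. These shares are a description with no test, and shares of 1 sum move against each other.

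Markers of cell types moved in the same comparisons. In the first, 6.44% of all tested rows were called in either direction. There 3 of 6 basal markers were called and higher without EGF (KRT5 by 0.79, KRT14 by 0.76 and KRT17 by 1.52). The summed basal level was 496027 to 571357 without EGF against 301867 to 354496 with it. The adhesion gene CDH1 rose by 2.27 and the simple-epithelial keratin KRT18 fell by 0.85. Of 10 fibroblast markers, 8 were tested, 5 rose (COL1A1, COL3A1, DCN, DPT and FAP, by 0.91 to 1.75) and 0 were listed at 0, with a summed level of 6907 to 7088 without EGF against 2248 to 4373 with it. The highest level with EGF was that of the library labelled BRCA2 siRNA at passage 4, which also exceeded its control by more than 1 in COL3A1, DCN and LUM. The part of these markers in the HOX values was not tested.

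Other cell types had few markers. The endothelial marker KDR was higher without EGF by 1.23 (limma adjusted p = 0.0248), with a summed endothelial level of 592 to 781, against 285 and 313 in the controls at passage 6 and 1102 in the control at passage 4, and CDH5 was listed at 0. The part of these values in the HOX results was not tested. No haematopoietic marker passed the filter, CD3E was listed at 0, and the summed level was 17.3 to 18.8 in all 6 libraries. The luminal sum was 141 to 154, and 0 of the 4 tested luminal markers were called in the first comparison, where 6.44% of all tested rows were.

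The partners of HOX proteins were expressed, and some moved. Of 10 genes of the TALE homeodomain class (PBX, MEIS, PKNOX and TGIF) described here, 8 were tested. In the first comparison 1 rose, where 6.44% of all tested rows were called. The list median was 0.14, against -0.02 over all tested rows. MEIS3 rose by 0.75 (limma adjusted p = 0.0374), with log2 values of 6.65 and 6.42 in the controls at passage 6 and 7.29 and 7.27 without EGF. At passage 4 it was 7.82 in the control and 7.66 in the library labelled BRCA2 siRNA, so its highest values were at passage 4, and it fell by 1.29 between passages in the controls (limma adjusted p = 0.0231). The first-comparison call was lost without control A (limma adjusted p = 0.196) and without control B (limma adjusted p = 0.350), where 0.284% and 0.305% of all tested rows were called. With passages pooled the difference was 0.32 (limma adjusted p = 0.726), and the call was also lost without a filter (0.102), with averaged controls (0.278) and with quantile normalisation (0.0510).

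Between control passages 3 of the 8 tested TALE genes fell and none rose (PBX2 by 0.71, PBX3 by 0.72 and MEIS3), where 12.4% of all tested rows fell and 7.71% rose. MEIS1 differed by 0.69 in the first comparison with a limma adjusted p of 0.0506, just above the threshold of 0.05, and was not called. PBX3 was also lower in the fourth comparison, by 0.43 (limma adjusted p = 0.0441, and 0.139 with the replicate block). The list medians were -0.44 in the second comparison and -0.23 in the fourth, against -0.03 and -0.02 over all tested rows.

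The Polycomb list, most of whose products keep silent HOX genes off, had no call at passage 6. All 24 matched genes of 25 were tested. They include KDM6A and KDM6B, demethylases that oppose this silencing, so counts and medians of the list mix both kinds. In the first comparison 0 were called, where 6.44% of all tested rows were, with a list median of -0.03 and EZH2, the H3K27 methyltransferase, at -0.17. Between control passages 3 rose, EZH2 (0.70), its partner EED (0.54) and RBBP7 (0.65), and 6 fell, EZH1, JARID2, PHF1, RNF2, PHC1 and the demethylase KDM6B, by 0.64 to 1.21, with a list median of -0.25, where 7.71% of all tested rows rose and 12.4% fell. The EED call was lost with the replicate block (limma adjusted p = 0.0535). PHF1 was also the single gene of the list past the fold in the third comparison (-1.17), and the ubiquitin ligase RNF2 was the single call of the fourth (-0.57, limma adjusted p = 0.0338, and 0.0770 with the replicate block). Over all tested rows 2.21% passed the fold in the third and 16.3% were called in the fourth.

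The Trithorax and MLL list, whose products keep active HOX genes on, held 16 genes, 15 of them tested. Its first comparison had 0 calls, where 6.44% of all tested rows were called, with a median of -0.01. Between control passages 4 fell, DPY30, MLLT1, MLLT3 and AFF1, by 0.37 to 0.59, which is 4 of 15 where 12.4% of all tested rows fell. With the replicate block the calls of DPY30 (limma adjusted p = 0.0866), MLLT1 (0.129) and MLLT3 (0.0548) were lost. In the fourth comparison DPY30, a core subunit of the methyltransferase complexes, fell by 0.63 (limma adjusted p = 0.0253, and 0.0613 with the replicate block). KMT2A, the MLL1 methyltransferase, was between 12.65 and 13.08 in all 6 libraries. All calls between control passages rest on the 1 control library at passage 4, and 0 of all tested rows were called there without either passage 6 control.

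Retinoic acid is an inducer of anterior HOX genes, and 8 of 18 genes of its pathway were tested. The receptor RARG had log2 values of 8.51 and 8.47 in the controls at passage 6 and 9.31 and 9.48 without EGF, with 8.50 in the control and 8.72 in the library labelled BRCA2 siRNA at passage 4. It was highest in the 2 libraries without EGF. In the fourth comparison it was the 1 call of the 8 tested (0.68, limma adjusted p = 0.0318, and 0.0669 with the replicate block), where 16.3% of all tested rows were called. It was also the 1 call of the first comparison (0.90 ± 0.095, SE, limma adjusted p = 0.0186), where 6.44% of all tested rows were called. Without control A its limma adjusted p was 0.148 and without control B 0.166. The partner receptor RXRA fell by 0.49 between control passages, the 1 call there, where 12.4% of all tested rows fell. That call was lost with the replicate block (limma adjusted p = 0.0668). The degrading enzyme genes CYP26A1 and CYP26C1 and the binding protein gene CRABP1 were listed at 0, and ALDH1A3, which makes retinoic acid, was not called in any comparison.

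Long noncoding RNAs of the clusters were measured as rows of their own. Of 19 listed, 18 had a row, 5 were listed at 0 and 6 were tested. HOTAIRM1, a noncoding RNA of the HOXA cluster, had log2 values of 8.12 and 8.12 in the controls at passage 6 and 8.79 and 9.43 without EGF, with 7.67 in the control and 7.50 in the library labelled BRCA2 siRNA at passage 4. Its 2 highest values were those without EGF. In the first comparison it differed by 0.99 ± 0.22 (SE, limma adjusted p = 0.0674) and was not called. In the fourth it rose by 1.61 (limma adjusted p = 0.0310), the 1 call of the 6 tested, where 16.3% of all tested rows were called. HOXC13-AS, the antisense partner of HOXC13, was 5.15 and 4.88 in the controls at passage 6 and 5.72 and 6.02 without EGF (0.86 ± 0.17, SE, limma adjusted p = 0.0560), where HOXC13 itself differed by 0.20. With the replicate block both rows were called in the first comparison (limma adjusted p = 0.0147 for HOTAIRM1 and 0.0333 for HOXC13-AS), and also with crossed letters (0.0121 and 0.0108). The other 4 tested, HOXA-AS2, HOXA-AS3, HOXB-AS1 and HOXC-AS1, had first-comparison differences of -0.12 to 0.35 and were not called in any comparison.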

How the data were processed

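RNA was extracted by column, purified on mRNA beads and made into libraries with a ScriptSeq v2 kit, per the labels' protocols. The submitters' processing notes list TopHat2 2.0.11, DESeq2 and build hg19, while the sources used here do not give the counter, annotation or transformation. Log2 values were deposited by the authors for 57820 Ensembl rows in 6 columns, from -1.98 to 19.93, of which 25986 rows are 0 throughout. Depth is unknown, so no counting error could be given. Symbols were found for 89.9% of rows. Tests covered the 14763 rows whose normalised value averaged 10 or more, in 1 fit with 4 levels of siRNA, medium and passage (R 4.3.3, limma 3.58.1, eBayes using trend and robust prior, two-sided, 2 residual degrees of freedom, Benjamini-Hochberg over all tested rows). For a level of 1 library the spread is that of the others. The procedure was tested on simulated data for the first comparison only, with planted differences larger than any seen in the HOX genes. Exon lengths and overlaps came from GENCODE release 29, another annotation and build than the authors used. Genes named with values in every library are those called in any comparison or among the 3 largest differences of one. From the other lists, called genes are named, or else the 2 largest differences. A HOX gene and some listed genes are not reported here and enter only the fit over all rows. HOX genes and lists were chosen with earlier results of these data known. Alternatives were other filters, priors, scalings, groupings, replicate blocks and leaving out libraries.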

Additional observations from a re-analysis of the deposited data

How the results depend on the processing

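In the first comparison 0 HOX genes were called under every alternative except leaving out a library, where the count ran from 0 to 7, and the HOXB9 difference turned to -0.54 without library B of the pair without EGF and was 0.59 without library A. The replicate block also gave 0. In the partner, chromatin, retinoid and noncoding lists the block lost 5 of 17 calls in the second comparison and 4 of 5 in the fourth and gained 2 in the first, while without a filter and with averaged controls all of these calls were lost. All rows called there fell from 950 to 76 without a filter, 46 with the controls averaged and 146 with passages pooled, and rose to 1795 with a block of crossed letters, chosen after seeing the data because the deviations of same-lettered libraries correlated at -0.17. In the second comparison the 1 call became 0 without a filter, with the replicate block, with crossed letters, with averaged controls and without either control. In the fourth, the 2 calls became 0 without a filter, with the replicate block (937 rows called in all, against 2406), with averaged controls (203) and with passages pooled (30), and ran from 5 to 7 without a library of the pair without EGF. With crossed letters the HOX count of the fourth comparison stayed at 2 (2256 rows called in all). In the lists, crossed letters lost 6 of 17 calls in the second comparison. They lost 1 of 5 in the fourth and gained 1 there. The letters do not pair the samples, and the titles of the passage 4 libraries give none, so the block counted both of those as A. Quantile normalisation, added after seeing the data, left the first count at 0. Direction changed in 18 of 420 settings of single HOX genes, among 9 differences of -0.24 to 0.19, and HOXD8 in the first comparison (0.19) turned to -0.03 with passages pooled. With a minimum of 50, 8 genes were on. The cause of each change was not tested. Where libraries were left out or averaged, the fit also had fewer of them. Depth limits could not be computed.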

Other observations

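Homeobox genes next to the clusters and of the ParaHox family were mostly listed at 0 or under the filter in these libraries. Of 13 listed (EVX1, EVX2, CDX1, CDX2, CDX4, PDX1, GSX1, GSX2, MNX1, GBX1, GBX2, MEOX1 and MEOX2), 6 were listed at 0 in all 6 libraries: EVX1, CDX1, CDX2, CDX4, GSX1 and GBX1. The 1 that passed the filter was MNX1, a motor neuron and pancreas homeobox gene, with log2 values of 3.11 to 3.53, and it was not called in any comparison. Geminin (GMNN), a replication licensing inhibitor known to bind HOX proteins, and its partner CDT1 had differences of -0.49 and -0.31 in the first comparison, without EGF minus control, and were not called (limma adjusted p = 0.177 and 0.239).

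HOX long noncoding RNAs listed at 0 were HOTTIP, HOXA10-AS, HOXB-AS3, HOXB-AS4 and HAGLROS. HOTTIP lies beyond HOXA13, and HOXA10-AS overlaps the HOXA9 and HOXA10 region, whose HOX genes were also listed at 0. HOTAIR, transcribed from the HOXC cluster between HOXC11 and HOXC12, had a mean normalised value of 9.18, under the minimum of 10, and was not tested.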
